A study of Zea mays with 24 samples.

Results

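Leaves of the maize inbred line B73 were compared with leaves of the inbred line W23 on an early Affymetrix array for maize, where several short probes together, called a probe set, read 1 transcript sequence. The comparison took the 12 arrays titled for these lines out of the 24 arrays of the series, 6 of B73 and 6 of W23. Per the labels, each RNA came from leaves 3 to 5 of 6 to 10 greenhouse plants. Both lines were grown and harvested 3 separate times, with an RNA from each time measured on 2 arrays, so the unit of replication is the RNA (n = 3 per line). No treatment, mutation or transgene is named for either line, plant age is given only by leaf position, and each RNA is a pool of plants. The 2 other lines, Mo17 and Wf9, enter the fit as 6 arrays each and are quoted only as levels beside a result.

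Maize inbred lines are made by repeated selfing and differ from each other at many genes, so leaves of a pair of lines grown alike can differ in which transcripts they carry and in how much. The maize reference genome was read from B73, and W23 is an older line much used in maize genetics. Maize leaves fix carbon by the C4 pathway, in which mesophyll cells capture carbon dioxide and bundle sheath cells release it to Rubisco. Water channels (aquaporins) move water and small solutes across the plasma membrane and the vacuolar membrane, and glutathione transferases attach glutathione to toxins, herbicides and products of oxidative stress.

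Levels are given as the signal of each RNA, the mean of its 2 arrays, in the order of replicates 1, 2 and 3. A signal of 16.7 served as the background level. Differences are B73 minus W23 on the scale of log2(signal + 16), with SE, and p-values are from limma, adjusted over 8346 probe sets. Of these, 2130 were at or below background on every B73 and W23 array. The photosynthesis probe sets were among the brightest, all 19 probe sets of the seed list were at or below background on every array of both lines, and so were 7 of the 8 of the pollen list. No seed or pollen probe set was called in limma, with 0 of 19 and 0 of 8, and 0 had an unadjusted p under 0.05. Over all probe sets with a mean signal at or below background, 7.09% were called. The brightest seed genes were TIP3-1 and TIP3-2, water channels of the seed vacuole, with TIP3-1 at 8.95, 8.30 and 12.8 in B73, against 12.1, 14.0 and 5.35 in W23. TIP3-2 had 9.80 ± 1.14 in B73 and 9.20 ± 3.76 in W23 (SD, n = 3).

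Some libraries stood apart. B73 replicate 3 array 1 held all 213 exact zeros of the table, which were treated as missing, and differed from its partner array with an SD of log2 differences of 0.853 over bright probe sets, against 0.0929 to 0.213 in the other technical pairs. Between single arrays of W23 replicates 2 and 3 this SD was 0.187 to 0.210, above their own technical pairs (0.131 and 0.133). Between the array means of these 2 replicates it was 0.176. That was below the other pairs of replicates of these lines (0.426 to 0.811, with B73 replicate 3 array 1 left out). W23 replicates 2 and 3 were kept as 2 replicates. Counts are therefore also given without B73 replicate 3 and with the 2 W23 replicates counted as 1. Over 3557 brighter probe sets the median SD of the replicates on the log2 scale was 0.315 in B73, against 0.168 in W23. The B73 value includes replicate 3 array 1, and the W23 value the 2 alike replicates. Between B73 replicates 1 and 2 the SD of log2 differences was 0.426. That was below W23 replicate 1 against replicates 2 and 3 (0.479 and 0.449), so a wider spread in B73 did not hold for every pair.

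B73 and W23 leaves differed at 1335 of 8346 probe sets, 16% of those tested, 703 of them higher (8.42%) and 632 lower (7.57%) in B73 leaves. A difference of at least 2-fold on the log2(signal + 16) scale was reached by 630 (7.55%), 396 higher (4.74%) and 234 lower (2.80%) in B73. The median difference over all probe sets was -0.04. Without B73 replicate 3 the counts were 726 higher and 542 lower, with W23 replicates 2 and 3 counted as 1 they were 493 and 410, and under both changes 555 and 392. Leaving out W23 replicate 2 also brought the number lower in B73 to 410. Called probe sets lay at all levels of signal, at 23.6% of the 1982 probe sets with a mean signal between background and 100, at 19.6% of the 2890 between 100 and 1000, and at 15.4% of the 667 above 1000. Of the 2807 with a mean signal at or below background, 199 were called (7.09%), 68 higher and 131 lower in B73. Among the 852 probe sets with a gene name, 125 were called (14.7%), 64 higher and 61 lower in B73. They stood for 100 genes, of which 52 were called only as higher, 46 only as lower and 2 both ways.

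**Figure D1:**
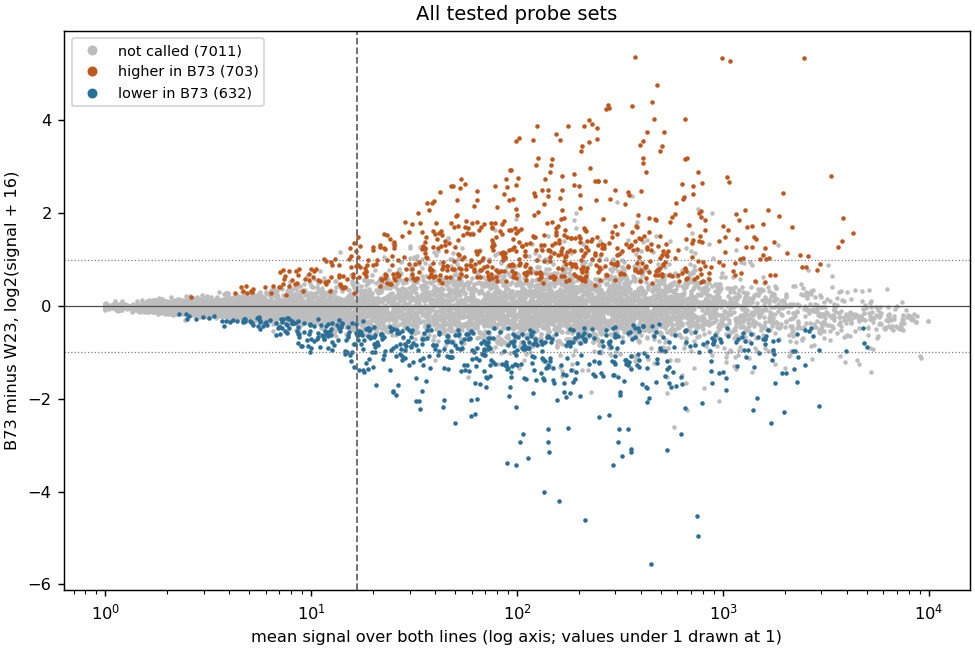
The difference B73 minus W23 of each of 8346 probe sets on the log2(signal + 16) scale (vertical axis) is plotted against its mean signal in both lines (horizontal log axis); orange points are called higher in B73 (703), blue points lower (632) and grey points are not called. The dashed line marks the background level of 16.7 and the dotted lines a 2-fold difference; differences of dim probe sets are compressed toward 0 by the added 16.

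The named genes with the highest B73 signal relative to W23 were a defence protein, a glutathione transferase, 2 chromatin proteins and a polyamine enzyme. The pr5 probe set, for a thaumatin-like defence protein, had signals of 569, 268 and 2007 in B73, against 14.4, 5.00 and 9.65 in W23. All W23 replicates were below background, and B73 replicate 3 was the highest. The fold was at least 40.4 (difference 4.75 ± 0.73, adjusted p = 0.000746). The gst31 probe set with the largest difference had 571, 144 and 1973 in B73, against 8.05, 10.4 and 14.9 in W23, at least 32.6-fold higher (adjusted p = 0.00174), and here too replicate 3 led. Of 4 further gst31 probe sets, 3 were called higher and 1 was not called, at 155, 41.8 and 812 in B73, against 23.4, 52.2 and 67.8 in W23, where the replicates overlapped. Without B73 replicate 3, which was the highest in all of them, 2 of these 3 calls were lost (adjusted p = 0.111 and 0.0910).

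The his1 and mbd111 probe sets, both for chromatin proteins, gave some of the clearest separations, while most chromatin probe sets were not called. The probe set of his1, a linker histone, had 559, 784 and 249.5 in B73, against 8.80, 11.5 and 10.6 in W23, at least 28.6-fold higher (difference 4.24 ± 0.36, adjusted p = 6.78e-06). That of mbd111, a protein with a methyl-CpG-binding domain, had 274, 273 and 199.9 in B73, against 0.850, 2.40 and 2.60 in W23, at least 14.7-fold higher (adjusted p = 7.40e-08). Both were below background in every W23 replicate and above it in Mo17 and Wf9, at 464 and 227 for his1 and at 265 and 294 for mbd111, so W23 was the low line. A probe set can lose signal where a line's sequence differs under its probes, and this was not tested. In the other direction, his1a, another histone gene, had 834, 827 and 806 in B73, against 2062, 1686 and 1502 in W23 (difference -1.10 ± 0.20, adjusted p = 0.00241), and its 2 further called probe sets were lower as well.

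In all, 4 of 8 histone probe sets were called (1 higher and 3 lower in B73), and 4 of 9 for methyl-CpG-binding proteins and DNA methyltransferases (3 higher and 1 lower). These shares were 50% and 44.4%, against 16% of all probe sets. The 3 lower histone calls were all of his1a. Those for methyl-CpG-binding proteins and DNA methyltransferases included mbd101 at 215 ± 35.4 in B73 and 116 ± 13.8 in W23, and dmt106, a DNA methyltransferase, at 12.7 ± 1.22 in B73, below background, and 28.1 ± 5.90 in W23 (SD, n = 3). Of 39 probe sets for Polycomb, SET domain and other chromatin proteins 2 were called (5.13%), both of vip3, which in Arabidopsis works with the Paf1 complex in transcription. It had 115, 111 and 174 in B73, against 32.7, 30.4 and 32.5 in W23, a fold of 4.10 (adjusted p = 4.80e-05). None of the 15 probe sets for histone acetylation and deacetylation passed in limma, and 0 had an unadjusted p under 0.05. The brightest was hda101, a histone deacetylase, at 511 ± 69.3 in B73 and 625 ± 96.3 in W23 (adjusted p = 0.319).

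Calls among polyamine and sulphur amino acid genes went in both directions, but the only lower call was lost in several settings. The spermidine synthase gene spds2 had 1303, 1111 and 535 in B73, against 56.9, 51.5 and 49.3 in W23, a fold of 17.5 (difference 3.75 ± 0.33, adjusted p = 9.99e-06). Its signal was 79.1 in Mo17 and 190 in Wf9, so B73 was the high line. HMT-2, a homocysteine methyltransferase of the methionine cycle, had 35.6, 64.1 and 20.7 in B73, against 10.5, 10.9 and 6.45 in W23, at least 2.16-fold higher. The sam2 probe set had 3659, 4801 and 2462 in B73, against 6266, 5543 and 6122 in W23 (adjusted p = 0.0427), but its call was lost in 9 of 21 alternative settings, among them the one without B73 replicate 3, and a second sam2 probe set was not called. The list had 2 probe sets higher and 1 lower in B73 of 11 (27.3% called, against 16% of all probe sets). Without B73 replicate 3 these were 4 and 0. With W23 replicates 2 and 3 counted as 1 they were 2 and 0, and with both changes 3 and 0.

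**Figure D2:**
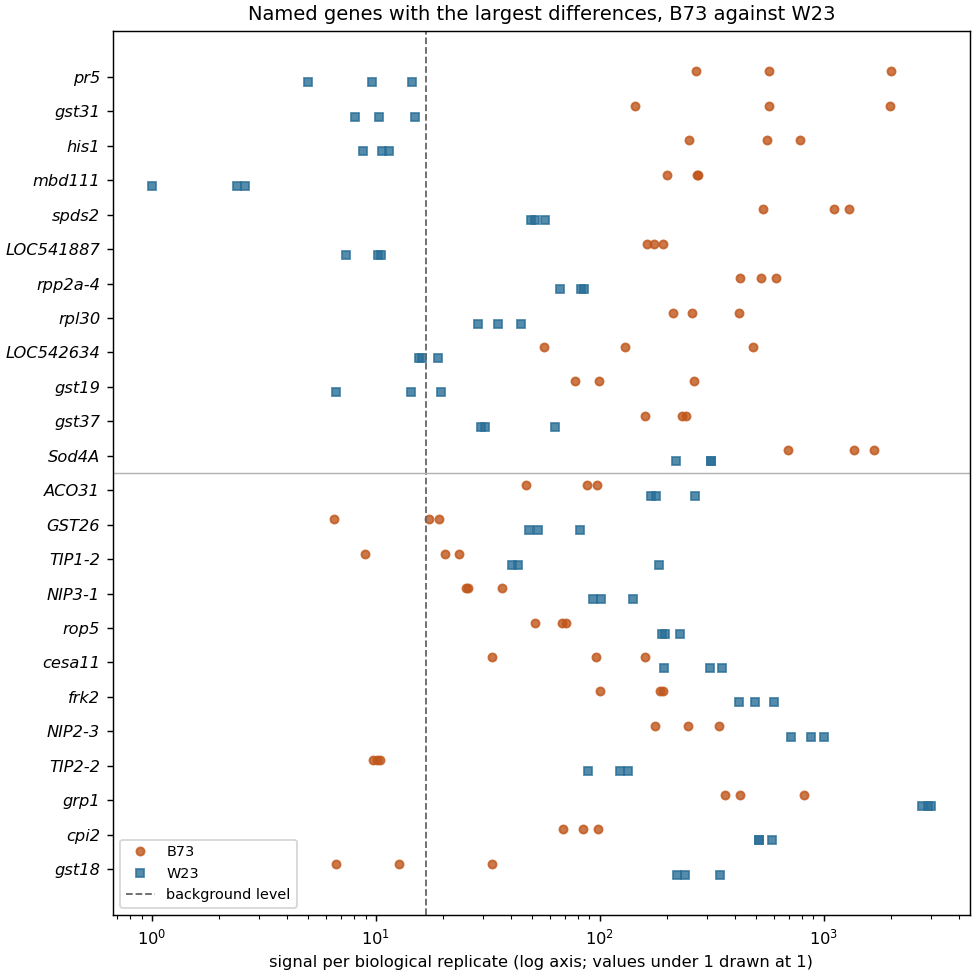
The signal of each biological replicate (points, log axis) is shown for the 12 named genes with the highest and the 12 with the lowest differences, with B73 (orange circles) above W23 (blue squares) in each row; the dashed line is the background level of 16.7. In the upper block pr5, gst31, his1, mbd111 and LOC541887 have all 3 W23 replicates below that level, and in the lower block TIP2-2 has all 3 B73 replicates below it.

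Among antioxidant and thiol genes, 3 of 13 were called as higher in B73 and 1 as lower. Sod4A, which encodes a superoxide dismutase of the copper/zinc type, had 1363, 696 and 1682 in B73, against 219, 314 and 315 in W23, a fold of 4.19 (difference 2.00 ± 0.27, adjusted p = 0.000335), and its other probe set was higher too. The ascorbate peroxidase gene apx2, which removes hydrogen peroxide, had 1357, 839 and 988 in B73, against 319, 276 and 303 in W23 (3.48-fold, adjusted p = 0.000196). In Mo17 and Wf9 apx2 stood at 1216 and 985, near its B73 level. The thioredoxin gene trh2 went the other way, with 1674, 1284 and 1597 in B73, against 2534, 3245 and 3120 in W23 (difference -0.97 ± 0.19, adjusted p = 0.00376), and a second trh2 probe set was not called. The list's 16 probe sets held 4 called as higher in B73 and 1 as lower (31.3% called, against 16% of all probe sets).

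Glutathione transferases split in both directions, with 8 probe sets of 5 genes higher and 7 probe sets of 3 genes lower in B73 of 52 tested (28.8% called, against 16% of all probe sets). Both probe sets of gst18 were low in B73. The one with the larger difference had 12.7, 6.65 and 33.1 in B73, against 345, 241 and 220.2 in W23 (difference -3.14 ± 0.39, adjusted p = 0.000164), and the fold of 12.6 is understated because 2 of the B73 replicates were below background. GST26 had 19.2, 17.2 and 6.50 in B73, with replicate 3 from its second array alone, against 82.0, 52.8 and 48.4 in W23 (adjusted p = 0.00131). Higher in B73 were gst37, at 233, 159 and 243, against 63.2, 30.8 and 29.4 in W23 (5.39-fold), and GST38, at 165, 179 and 136 (the last from array 2 alone), against 48.7, 41.4 and 34.9 in W23 (3.86-fold).

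The probe sets of 1 glutathione transferase gene did not always go together. One gst19 probe set, with a suffix that marks probes shared with other sequences, had 77.8, 98.99 and 263 in B73, against 19.5, 14.4 and 6.65 in W23 (difference 2.13 ± 0.24, adjusted p = 6.80e-05). Its high B73 replicate 3 rested on deposited signals of 467 on array 1 and 59.6 on array 2. The 3 further gst19 probe sets were not called, and the brightest had 209, 324 and 98.2 in B73, against 272, 177 and 172 in W23. Several glutathione transferases with no call also had B73 replicate 3 far above the other B73 replicates, such as gst2, at 855, 169 and 2314 in B73, against 713, 832 and 902 in W23. Without B73 replicate 3 the list had 7 probe sets higher and 8 lower, and the median difference of the list was 0.15, against -0.04 over all probe sets.

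**Figure D3:**
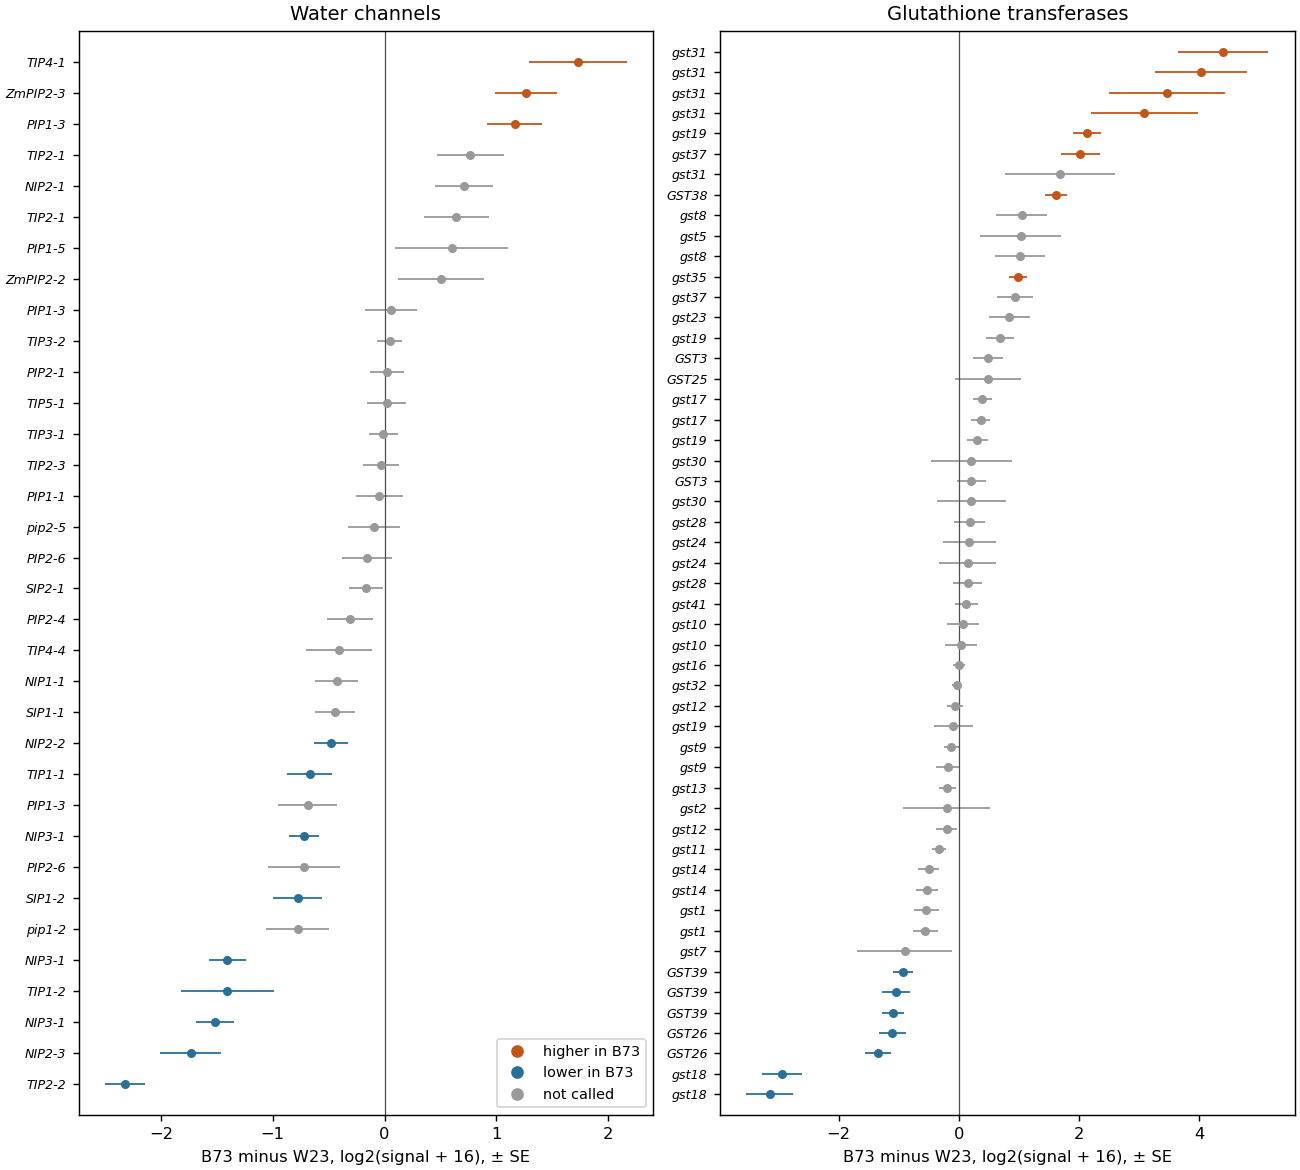
Each point is the difference B73 minus W23 of 1 probe set on the log2(signal + 16) scale with its SE, for 34 water channel probe sets (left) and 52 glutathione transferase probe sets (right); orange is called higher in B73, blue lower and grey not called. Several rows of 1 gene name are different probe sets, and those of gst19 and PIP1-3 are spread over both called and not called values.

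Of 34 water channel probe sets, 9 from 7 genes were lower in B73 and 3 from 3 genes were higher (35.3% called, against 16% of all probe sets). TIP2-2, a channel of the vacuolar membrane, had 10.5, 10.1 and 9.70 in B73, all below background, against 88.4, 134 and 123 in W23, at least 6.79-fold lower (difference -2.32 ± 0.18, adjusted p = 3.16e-06). NIP2-3, of the family whose NIP2 members carry silicon in grasses, had 247, 340 and 177 in B73, against 875, 1001 and 715 in W23, 3.48-fold lower (adjusted p = 0.000966). NIP3-1 had 25.3, 25.7 and 36.6 in B73, against 141, 102 and 93.1 in W23 (adjusted p = 7.24e-05), and its 2 other probe sets were lower too. TIP1-2 had 20.4, 23.5 and 8.95 in B73, against 183, 43.2 and 40.4 in W23, where replicate 1 alone was high, and its call (adjusted p = 0.0384) was lost in 8 of 21 alternatives.

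The 3 water channel probe sets higher in B73 belonged to TIP4-1, ZmPIP2-3 and PIP1-3, and all 3 genes lie outside the rule for named genes and were added after their values were seen. TIP4-1 had 192, 98.4 and 490 in B73, against 30.6, 65.9 and 68.8 in W23. ZmPIP2-3, a channel of the plasma membrane, had 222, 337 and 381 in B73, against 114, 114 and 125 in W23. Of the 3 PIP1-3 probe sets only 1 was called. Without B73 replicate 3 the list had 4 probe sets higher and 5 lower, with W23 replicates 2 and 3 counted as 1 it had 3 and 6, and with both changes 1 and 5. The bright plasma membrane channels PIP1-1 and PIP2-1 were not called, with PIP2-1 at 3925, 3316 and 3639 in B73, against 3756, 3333 and 3593 in W23.

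Genes of starch and sucrose metabolism were called as lower in B73 for 6 of 18 genes and as higher for 2. Frk2, a fructokinase, had 187, 192 and 99.8 in B73, against 601, 495 and 417 in W23, 3.26-fold lower (difference -1.61 ± 0.24, adjusted p = 0.000601). The sucrose transporter gene sut1 had 579, 610 and 554 in B73, against 1032, 1137 and 1291 in W23, 1.98-fold lower (adjusted p = 0.000780), and stood at 1178 in Mo17 and 1083 in Wf9, so B73 was the low line. A probe set of sh2, the large subunit of ADP-glucose pyrophosphorylase of starch synthesis, was below background in B73, at 3.50 ± 2.29, and just above it in W23, at 21.6 ± 1.91 (SD, n = 3). The list of starch and sucrose metabolism had 2 probe sets higher and 6 lower in B73 of 22 (36.4% called, against 16% of all probe sets). With W23 replicates 2 and 3 counted as 1 these were 1 and 4, and without W23 replicate 2 the calls were 5 in all.

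Cell wall genes had 1 probe set higher and 5 lower in B73 of 28 (21.4% called, against 16% of all probe sets), from 3 genes. The largest difference was in grp1, a glycine-rich protein, with 363, 422 and 818 in B73, against 2927, 3004 and 2760 in W23 (difference -2.52 ± 0.23, adjusted p = 1.56e-05). One further grp1 probe set was lower too, but another was higher in B73, at 63.95, 83.5 and 71.9, against 31.5, 54.6 and 34.6 in W23 (adjusted p = 0.0291), and the 3 others were not called, among them the brightest, at 5660.0, 6553 and 4959 in B73, against 3604, 5025 and 4930 in W23. The cellulose synthase gene cesa11 had 159, 95.9 and 33.0 in B73, against 312, 352 and 193 in W23 (adjusted p = 0.0357), a call lost in 8 of 21 alternatives, and cesa3 had 45.7 ± 6.28 in B73 and 76.6 ± 14.6 in W23 (adjusted p = 0.0333), also lost in 8. The list had 3 calls in place of 6 when any replicate other than B73 replicate 1 was left out, and 1 higher and 2 lower with W23 replicates 2 and 3 counted as 1.

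Of 5 wax, lipid and lignin probe sets 3 were lower in B73 (60%, against 7.57% lower over all probe sets), and 1 was without W23 replicate 2. Gl8, a reductase that elongates the fatty acids of cuticular wax, had 205, 213 and 141 in B73, against 435, 435 and 353 in W23 (difference -1.08 ± 0.20, adjusted p = 0.00248). BM1, an alcohol dehydrogenase of lignin synthesis, had 690, 735 and 794 in B73, against 1219, 1312 and 1062 in W23 (adjusted p = 0.0106).

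Defence probe sets were called in both directions, but the lower calls were of cpi2, whose probe sets disagreed, and of hir2, which was below background. Besides pr5, cpi2, an inhibitor of cysteine proteases, had a probe set at 97.9, 84.0 and 68.5 in B73, against 588, 515 and 515 in W23, 6.52-fold lower (difference -2.64 ± 0.22, adjusted p = 5.77e-06). Of the 3 further cpi2 probe sets, 2 were called higher in B73. One of them had 502, 410 and 446 in B73, against 250.03, 240.4 and 232 in W23 (adjusted p = 0.00186), so that no direction for the gene follows from its probe sets. The probe set of hir2, of a family induced in the hypersensitive response, passed with all replicates of both lines below background (2.97 ± 0.665 in B73 and 11.9 ± 3.73 in W23, SD, n = 3), and no fold is given for it. The list had 3 probe sets higher and 2 lower in B73 of 15 (33.3% called, against 16% of all probe sets).

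Hormone genes were higher in B73 for 3 genes and lower for 1. Asr1, whose small protein responds to abscisic acid and stress, had 3850, 2816 and 3344 in B73, against 972, 1056 and 996 in W23, 3.29-fold higher (difference 1.70 ± 0.18, adjusted p = 4.06e-05), and its other probe set followed. Aoc1, the allene oxide cyclase that works in making jasmonate, had 127, 109 and 127 in B73, against 45.0, 46.8 and 45.7 in W23 (adjusted p = 0.000290), and a second of its probe sets was called higher, but 2 others, from another probe set family of the gene, were not called, the brighter at 262, 189 and 278 in B73, against 262, 260 and 247 in W23. ACO31, an oxidase of ethylene synthesis, had 46.8, 87.6 and 96.7 in B73, against 268, 169 and 178 in W23 (difference -1.27 ± 0.27, adjusted p = 0.00704). Of the list's 15 probe sets, 5 were called as higher in B73 and 1 as lower (40.0% called, against 16% of all probe sets). A pair of response regulators of cytokinin signalling passed in opposite directions, RR9 at 265 ± 57.2 in B73 and 143 ± 5.76 in W23 and RR4 at 24.5 ± 2.42 in B73 and 46.0 ± 13.9 in W23, each with a call lost in 8 of 21 alternatives.

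Ribosomal protein genes were called at 3 of 32 probe sets, all higher in B73 (9.4%, near the 8.42% higher over all probe sets). The acidic protein gene rpp2a-4 had 525, 424 and 614 in B73, against 66.3, 82.4 and 85.3 in W23 (6.64-fold, adjusted p = 0.000125), with 621 in Mo17 and 592 in Wf9. Rpl30 had 258, 212 and 418 in B73, against 28.5, 35.3 and 44.4 in W23 (7.99-fold, adjusted p = 2.21e-05), with 57.3 in Mo17 and 55.6 in Wf9. W23 was thus the low line for rpp2a-4 and B73 the high line for rpl30. The third, rpp2b, had 3635 ± 614 in B73 and 2096 ± 91.8 in W23, and its call was lost in 5 of 21 alternatives. Of 26 probe sets for translation factors 1 was called (3.85%, against 16% of all probe sets). It was eif3, with 189 ± 19.7 in B73 and 116 ± 7.81 in W23 (SD, n = 3).

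Calls among developmental regulators and signalling genes were near the share of 16% called in either direction over all probe sets. They were all lower in B73, a direction called for 7.57% of all probe sets. Of the 22 probe sets for MADS-box, homeobox and other developmental regulators, 5 were lower (22.7%), 0 were higher and 12 were at or below background on every array. Hox3, a homeobox gene, had 99.8, 84.2 and 55.5 in B73, against 193, 177 and 188 in W23 (difference -1.14 ± 0.21, adjusted p = 0.00269), and its other probe set was lower as well. Rld1, a homeodomain gene that sets the upper and lower faces of the leaf, had 80.8, 101 and 48.5 in B73, against 171, 140.5 and 143 in W23 (adjusted p = 0.0120). The ZMM2 call lay at the background level, with 5.05, 6.75 and 7.35 in B73, against 20.4, 14.8 and 15.2 in W23. Among signalling genes 4 of 22 probe sets were lower (18.2%) and 0 higher. Rop5, a small GTPase, had 67.5, 51.4 and 70.6 in B73, against 196, 229 and 189 in W23, 3.26-fold lower (adjusted p = 0.00186), and the calmodulin gene CaM1 had 995 ± 119 in B73 and 1728 ± 212 in W23. The blue light receptor gene phot1 had 420, 664 and 446 in B73 (the last from array 2 alone), against 945, 906 and 1218 in W23, and its call was lost in 9 of 21 alternatives. Without B73 replicate 3 each of these 2 lists also had 1 probe set called higher in B73. With W23 replicates 2 and 3 counted as 1, the lower calls were 3 among developmental regulators and 2 among signalling genes, and with both changes 3 and 1. Leaving out B73 replicate 1, B73 replicate 2 or W23 replicate 2 left 3 calls among developmental regulators, and leaving out W23 replicate 2 or 3 left 2 among signalling genes.

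Photosynthesis genes had 0 calls, against 16% of all probe sets and 15.4% of those with a mean signal above 1000. None of 16 probe sets of the C4 and Calvin cycles and none of 17 for light harvesting and photosystem proteins passed in limma, with 1 in each at an unadjusted p under 0.05, and neither list had a call without B73 replicate 3. Leaving out B73 replicate 2 gave 1 call in the C4 and Calvin list, and leaving out B73 replicate 1 gave 1 in the light harvesting and photosystem list. The pdk1 probe set, for the pyruvate phosphate dikinase of the C4 cycle, had 9924, 10481 and 6382 in B73, against 11988, 9856 and 11006 in W23 (difference -0.32 ± 0.23, adjusted p = 0.410). All 17 light harvesting and photosystem differences were below 0, with a median of -0.34. The summed signal of this list was 105029, 117203 and 54382 in B73, against 127844, 97337 and 105031 in W23, so B73 replicate 3 was the low sample and the other B73 replicates lay within the range of W23. Both arrays of that RNA were low, with summed signals of 51330 and 51075 over the 16 probe sets with no zero. The part of this replicate in the differences of pr5 and gst31, which it led, was not tested beyond leaving it out, after which both were still called (adjusted p = 0.00201 and 0.00323).

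Tubulins, which build microtubules, had 1 call, higher in B73, in 20 probe sets (5% called, against 16% of all probe sets). Of the 20 probe sets, 18 had differences below 0, and the median was -0.76. For 12 of the 20 all B73 replicates were below all W23 replicates, as was so for 18.7% of all probe sets. None of these 12 was called in limma with the 12 RNAs of 4 lines. The number of tubulin calls in either direction depended on the model, with 4 when B73 and W23 were fitted alone, with or without a replicate block, and 10 with array weights or with all arrays and the RNA as a random block, while leaving out W23 replicate 1 gave 0. The tub4 probe set nearest the threshold had 378, 367 and 288 in B73, against 750.3, 1748 and 1335 in W23 (difference -1.78 ± 0.58, adjusted p = 0.0594). The single call, tua3, was higher in B73, at 744, 925 and 695, against 394, 537 and 480 in W23 (adjusted p = 0.0117). The summed signal of the list was 13158, 12952 and 10551 in B73, against 15761, 24537 and 19583 in W23.

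**Figure D4:**
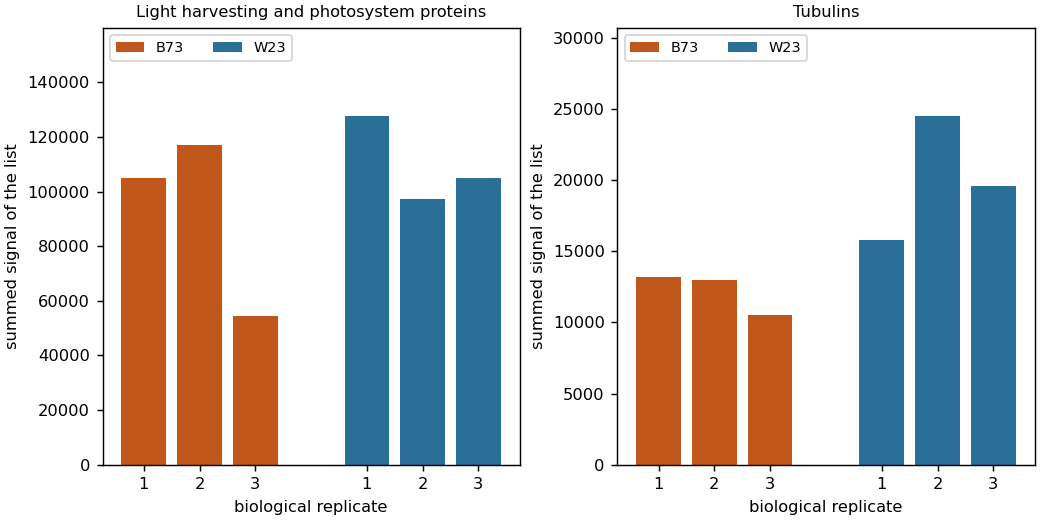
The summed signal of the light harvesting and photosystem list (17 probe sets, left) and of the tubulin list (20 probe sets, right) is drawn for each biological replicate, B73 in orange and W23 in blue, with bars from 0. B73 replicate 3 is the lowest bar on the left, at 54382, and all 3 B73 bars on the right lie below the W23 bars.

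The other lists had few calls, and the share of each is to be set against 16% called over all probe sets. Of 32 probe sets for glycolysis and fermentation 1 was called (3.1%). It was that of the enolase eno1, lower in B73 (1832 ± 427 in B73 and 2760 ± 68.5 in W23, call lost in 9 of 21 alternatives). Of 22 for heat shock proteins and chaperones 1 was called (4.55%), hsp70-4 (2132 ± 241 in B73 and 3347 ± 39.9 in W23, lost in 8). The mitochondrial list had 1 of 23 (4.35%), rf2b, below background in B73 and at 25.3 ± 6.19 in W23. The list of other transcription factors had 2 of 38 (5.26%), OBF1 and GRF12, both lower in B73. For protein translocation into chloroplasts it was 1 of 5 (20%), tha4, a subunit of the thylakoid twin-arginine translocase. The tha4 probe set had 192, 230.3 and 357 in B73, against 76.6, 115 and 107 in W23. Of 10 probe sets for glutamine synthetases and glutamate dehydrogenase 2 were called (20%). One was gln5, at 1549 ± 433 in B73 and 907 ± 79.6 in W23 (adjusted p = 0.0426), lost in 12 of 21 alternatives. The other was gln3, below background in B73, which has 2 further probe sets that were not called. None of the probe sets for profilins and actin-depolymerising factor (5), the cell cycle (5) or proton pumps and ABC transporters (8) passed, with ADF3 at 4784 ± 80.4 in B73 and 5519 ± 508 in W23, cdc2 at 46.0 ± 4.44 in B73 and 69.1 ± 13.5 in W23, and vpp1 at 2551 ± 1517 in B73 and 2968 ± 590.05 in W23. The 1 root marker, zrp4, a methyltransferase expressed mainly in roots, had 29.7, 75.9 and 20.4 in B73, against 9.30, 10.9 and 12.4 in W23 (adjusted p = 0.0247, lost in 6 of 21 alternatives).

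**Figure D5:**
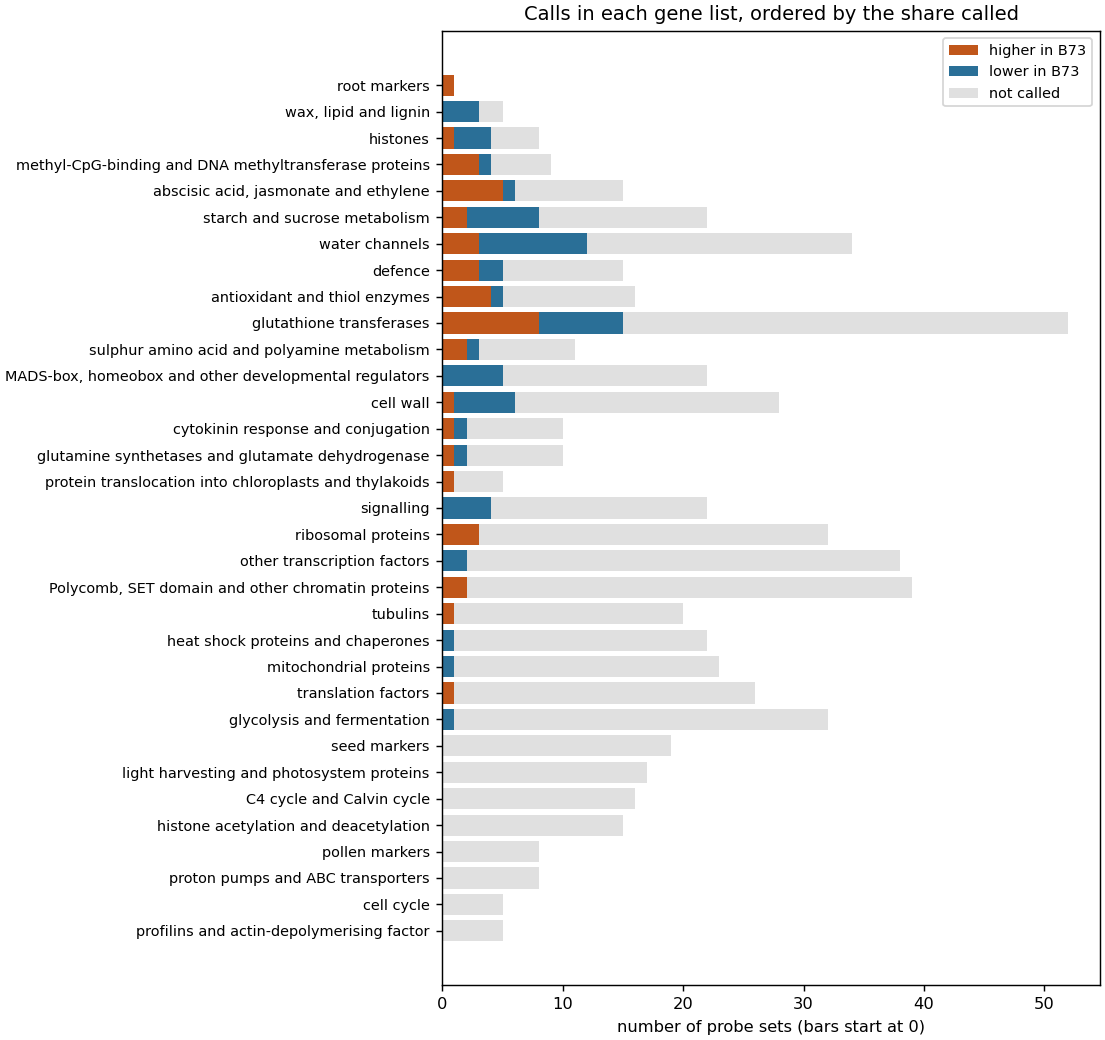
Bars count the probe sets of each of 33 gene lists that were called higher in B73 (orange), lower in B73 (blue) or not called (grey), ordered by the share called, with lists of few probe sets at both ends. Over all 8346 probe sets 16% were called, against which the share of each list can be read.

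Some probe sets had signal in only 1 of the lines. Above background on all B73 arrays and at or below it on all W23 arrays were 71 probe sets, with a median signal of 76.0 in B73, and the reverse held for 64, with a median of 33.2 in W23. Signals of 100 or more in the line above background were reached by 27 of the 71 and 10 of the 64. Of the 71 with signal in B73, 31 were above background on all Mo17 arrays and 34 on all Wf9 arrays, and 14 were at background on all arrays of both. Of the 64 with signal in W23, the counts were 27, 13 and 18. The named ones with signal in B73 were gst31, his1, mbd111 and LOC541887, annotated as a transcribed pseudogene, with 176, 192 and 163 in B73, against 10.2, 7.35 and 10.5 in W23 (adjusted p = 2.06e-07). Those with signal in W23 were TIP2-2, sh2, rf2b and gst14, of which gst14 was not called (adjusted p = 0.0807).

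The largest differences of all lay in probe sets with no gene name here. The one lowest in B73 had 2.00, 2.60 and 4.55 in B73, against 842, 819 and 1004 in W23, at least 53.0-fold lower (difference -5.57 ± 0.17, adjusted p = 3.89e-09). The highest, probe set Zm3.7106.1.A1_at, had 654, 968 and 604 in B73, against 1.35, 2.90 and 1.35 in W23, at least 43.5-fold higher (difference 5.37 ± 0.33, adjusted p = 4.76e-07), with 538 in Mo17 and 800.4 in Wf9. Next came probe set Zm3.16786.1.A1_at, which had 5314, 5690 and 3503 in B73, against 123, 91.6 and 92.1 in W23, 46.8-fold higher (adjusted p = 4.36e-08), with 119 in Mo17 and 5786 in Wf9. For the probe set lowest in B73, Mo17 stood between the lines, at 153, and Wf9 was below background, at 11.6.

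Where a gene had several probe sets, these often disagreed on the call. Of the 32 called genes with several probe sets, 13 had every probe set called in the same direction, 19 had at least 1 not called, and in 26 all differences had 1 sign. The 2 genes called in both directions were cpi2 and grp1.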

How the data were processed

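The deposited table holds 8475 probe sets as intensity (signal, linear scale), made by the authors with MAS5 in GCOS per the submitters' processing notes. Software version and detection calls are not given in the sources. The 2% trimmed mean was 250.1 to 250.2 on every array, which shows that the authors had scaled the arrays.

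Arrays were brought to 1 common trimmed mean, zeros were set missing, 129 control probe sets were dropped, and log2(signal + 16) was averaged over the 2 arrays of an RNA. The added 16 understates differences of dim probe sets. One limma 3.58.1 model (R 4.3.3, lmFit, eBayes with trend) held the 12 RNAs of 4 lines, with line alone as term. P-values were adjusted by Benjamini and Hochberg's method over all 8346 probe sets, and an adjusted p under 0.05 made a call; the code was tested on simulated data. "2-fold" means a log2 difference of 1. The background level, 16.7, is the 99th percentile of 44 unspiked control probe sets. Folds are ratios of geometric means floored at that level, given as "at least" where all 3 replicates of the dimmer line were at or below it. The number of RNAs, 3 a line, limits the precision. P-values treat the 3 RNAs a line as separate samples. Replicate numbers were not taken as pairs (correlations of deviations 0.29, -0.36 and 0.43, too few to settle whether they were paired).

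Names came from the platform annotation and the RefSeq gene table of Zm-B73-REFERENCE-NAM-5.0, with an older symbol where the table gives only a placeholder. Of 862 named probe sets 838 matched it, and the 852 tested stand for 579 genes. Suffixes of shared probes mark 1447 tested probe sets, among the named ones those of gst19, grp1, cpi2, NIP3-1, sut1, sh2, gln3, RR4, eno1, CaM1, pdk1 and the first gst31 one, whose signal can hold related transcripts.

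The members, the 33 gene lists (407 genes, written out gene by gene in place of symbol patterns after the annotation was read) and the tests were chosen with earlier results of these data known. The named genes were the 12 highest and 12 lowest differences with replicates apart, up to 3 called members per list by p, the brightest member of a list with no call, and the 2 brightest organ markers, with 1 probe set per gene. No sequences or coordinates are printed, since no build or sequence table was used here. Alternatives covered pseudocount, scaling, filter, lines fitted, zeros, replicate block, weights and each replicate left out.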

Additional observations from a re-analysis of the deposited data

How the results depend on the processing

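Across 21 alternatives the number of called probe sets ran from 848 to 3335, against 1335. It was 3335 with array weights (1677 higher and 1658 lower in B73, 233 in the gene lists against 98), 848 with a replicate block for B73 and W23 alone (372 lower), and 1661 with a replicate block for all lines. Counting W23 replicates 2 and 3 as 1 gave 410 lower, and leaving out B73 replicate 3 as well, chosen after seeing the data, gave 392. At least 2-fold apart were 244 higher and 126 lower with a pseudocount of 64, and 423 lower with a pseudocount of 1, which follows from how the added constant compresses differences. For the other settings the cause was not tested. Leaving out 1 replicate at a time gave 909 to 1349 called, 491 to 731 higher, 410 to 618 lower, 349 to 461 at least 2-fold higher, 216 to 288 at least 2-fold lower and 69 to 102 in the lists. Of the 125 named calls, 61 held in all 21 alternatives, and no named difference reported here changed sign where it was called. The calls most often lost were gln5 (12 of 21), OBF1 (10), eno1, sam2 and phot1 (9 each). Deviations of same-numbered replicates of B73 and W23 correlated at 0.29, -0.36 and 0.43 for numbers 1, 2 and 3. Replicates of unlike number correlated at -0.46 to 0.41. The numbers were not taken as pairs, but so few correlations cannot show whether same-numbered replicates were paired. The share of calls higher in B73 was 52.7%, and 45.5% to 58.6% over the alternatives.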

Other observations

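The maize control probe sets, which were left out of the fit, read the 3' and 5' ends of a few transcripts. Leaving out B73 replicate 3 array 1, the ratio of 3' to 5' signal was 1.85 to 2.52 in B73 and 1.70 to 1.91 in W23 for GAPDH, 1.29 to 1.85 in B73 and 1.36 to 1.72 in W23 for cyclophilin, and 1.29 to 1.74 in B73 and 1.27 to 1.499 in W23 for elongation factor 1-alpha. On B73 replicate 3 array 1, which was kept in the main fit, the ratio was 0.696 for elongation factor 1-alpha, below every other array. It was 1.65 for cyclophilin, and GAPDH had no value there.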
